A study of Mus musculus with 8 samples.

Results

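The comparison described here asks whether the response of mouse adipose-derived mesenchymal stem cells to a high-fat diet was the same after a long and a short feeding period. It sets the diet effect after 24 weeks (high-fat minus chow) against the diet effect after 12 weeks, in 1 fit to all 8 arrays of the study, so that the value given for each gene is a difference of 2 log2 differences. A positive value means that the high-fat diet raised the gene more, or lowered it less, at 24 weeks than at 12 weeks. All 29462 genes measured above background in at least 1 group were tested, and 16706 of them carry a gene symbol. Apart from this filter on signal, no measured value was used to choose genes for the fit. A gene is called sign-changing where the difference between the feeding times and both diet effects each passed an adjusted p of 0.05 and the diet effects had opposite signs, which 1154 of the 29462 genes did.

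The cells came from male C57BL/6 mice that were 6 weeks old when feeding began. The 4 groups are HF24 (a diet with 60% fat for 24 weeks), C24 (chow for 24 weeks), HF12 (60% fat for 12 weeks) and C12 (chow for 12 weeks), each with 2 arrays. The submitters call the 24-week mice old and the 12-week mice young, so feeding time and age at collection cannot be told apart. The cells were the plastic-adherent fraction of collagenase-digested abdominal subcutaneous fat after 2 to 3 passages, measured in bulk without sorting, so fewer cells of a type and less RNA per cell cannot be told apart in any value below. The labels do not say whether the 2 arrays of a group held separate animals or cultures. The p-values therefore measure only how far the paired arrays differed, and that may be a technical spread.

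All 8 arrays lay on 1 slide that was scanned once. The 24-week arrays occupied its second row and the 12-week arrays its first, and within each row the high-fat arrays stood in the last pair of columns and the chow arrays in the first pair. A row effect or a column effect that adds on the log2 scale cancels in the difference of diet effects, while a position effect that depends on both cannot be told apart from it. Between 57.4% and 62.3% of probes were well above background on the 24-week arrays, with a share of 65.0% to 67.1% in the 12-week samples. Levels of the same group correlated with r of 0.994 to 0.998 across probes and those of different groups with r of 0.954 to 0.984. The 16 stromal and progenitor markers tested were well above background on all 8 arrays, with summed levels of 405 to 408 in HF24, 427 to 428 in C24, 330 to 339 in HF12 and 327 to 339 in C12. Ly6a, another marker on that list, was not tested.

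Subcutaneous fat holds progenitors that can become adipocytes, together with resident macrophages, lymphocytes, vessels, nerve and, at its margins, skin and muscle. Interferon gamma, a cytokine of activated T cells and natural killer cells, acts through the gamma-activated site (GAS) in promoters and through the factor IRF1. Type I interferons act mainly through the interferon-stimulated response element (ISRE). Many genes carry either element or both, and the immunity-related and guanylate-binding GTPases, the chemokine Cxcl9, the ubiquitin-like modifier Ubd and the antigen-presentation genes are known chiefly as interferon gamma targets.

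The sign-changing genes with the highest differences include interferon gamma targets, so promoters of 5 such genes are printed first, followed by 2 of antiviral genes whose diet effect kept its sign. They are RefSeq sequences of build GRCm38.p6, on the strand of the gene, from 250 bases before to 50 bases after the transcription start. Capitals mark matches on either strand to a GAS motif (TTCNNNGAA) or an ISRE motif (GAAANNGAAA, or TTTCNNTTTC read on the other strand), where N is any base. Igtp, Irf1, Gbp7, Isg15 and Ifit1 were chosen after their values were seen, for what their promoters show.
Igtp, chr11:58199306-58199605, + strand: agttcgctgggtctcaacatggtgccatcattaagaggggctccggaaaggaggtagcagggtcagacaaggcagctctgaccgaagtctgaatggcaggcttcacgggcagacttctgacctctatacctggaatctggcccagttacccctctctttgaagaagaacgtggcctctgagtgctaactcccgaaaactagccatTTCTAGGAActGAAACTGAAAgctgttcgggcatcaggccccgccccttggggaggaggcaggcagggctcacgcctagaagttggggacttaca
Irgm2, chr11:58214727-58215026, + strand: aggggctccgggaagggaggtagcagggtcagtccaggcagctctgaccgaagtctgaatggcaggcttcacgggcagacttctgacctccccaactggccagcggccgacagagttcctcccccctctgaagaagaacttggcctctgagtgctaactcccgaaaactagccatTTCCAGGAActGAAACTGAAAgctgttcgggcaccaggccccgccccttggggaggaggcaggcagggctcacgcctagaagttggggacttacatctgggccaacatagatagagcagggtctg
Tgtp2, chr11:49064163-49064462, - strand: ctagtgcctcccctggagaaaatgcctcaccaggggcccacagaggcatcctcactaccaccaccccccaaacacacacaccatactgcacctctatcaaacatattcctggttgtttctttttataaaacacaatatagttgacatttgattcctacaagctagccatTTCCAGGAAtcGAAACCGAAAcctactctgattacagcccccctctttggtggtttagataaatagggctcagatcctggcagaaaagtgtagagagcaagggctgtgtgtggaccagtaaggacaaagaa
Irf1, chr11:53769764-53770063, + strand: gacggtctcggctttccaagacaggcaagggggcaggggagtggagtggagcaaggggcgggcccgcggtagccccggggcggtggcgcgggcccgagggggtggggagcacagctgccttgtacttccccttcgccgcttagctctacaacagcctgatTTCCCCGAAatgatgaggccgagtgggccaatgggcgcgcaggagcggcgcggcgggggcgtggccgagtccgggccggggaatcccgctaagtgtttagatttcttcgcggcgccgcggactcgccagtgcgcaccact
Gbp7, chr3:142530086-142530385, + strand: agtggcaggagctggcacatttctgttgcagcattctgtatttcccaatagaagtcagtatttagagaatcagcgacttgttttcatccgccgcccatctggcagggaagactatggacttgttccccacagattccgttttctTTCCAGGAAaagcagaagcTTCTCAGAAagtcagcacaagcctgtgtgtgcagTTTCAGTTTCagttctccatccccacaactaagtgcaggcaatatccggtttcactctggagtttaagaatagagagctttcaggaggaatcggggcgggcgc
Isg15, chr4:156200769-156201068, - strand: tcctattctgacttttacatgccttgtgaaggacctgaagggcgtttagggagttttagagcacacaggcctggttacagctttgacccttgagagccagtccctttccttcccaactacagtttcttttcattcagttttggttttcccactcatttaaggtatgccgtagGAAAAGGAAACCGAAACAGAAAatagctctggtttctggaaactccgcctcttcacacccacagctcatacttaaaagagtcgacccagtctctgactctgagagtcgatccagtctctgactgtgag
Ifit1, chr19:34640639-34640938, + strand: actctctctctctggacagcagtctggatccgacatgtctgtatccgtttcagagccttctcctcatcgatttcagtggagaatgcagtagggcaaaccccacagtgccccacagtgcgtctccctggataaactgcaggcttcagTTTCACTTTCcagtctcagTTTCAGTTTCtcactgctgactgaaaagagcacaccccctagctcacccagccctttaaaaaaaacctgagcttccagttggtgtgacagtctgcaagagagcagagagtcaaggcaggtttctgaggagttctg
The promoters of Igtp, Irgm2 and Tgtp2, which encode immunity-related GTPases, hold a GAS match and an ISRE match whose first bases lie 11 bases apart. The GAS match begins 45 bases before the start in Igtp, 75 bases in Irgm2 and 81 bases in Tgtp2. The Igtp and Irgm2 genes are neighbours on chromosome 11, with windows 15421 bases apart, and share a run of 61 identical bases. Igtp and Tgtp2 share no run longer than 11 bases. Irgm2 and Tgtp2 share a longer run, which holds the whole GAS match and the bases just before it. The Irf1 promoter has 1 GAS match, 90 bases before the start. The Gbp7 promoter has GAS matches at 106 and 87 bases and an ISRE match at 53 bases before the start. Isg15 has overlapping ISRE matches at 78, 72 and 66 bases, and Ifit1 has ISRE matches at 104 and 85 bases, and neither window has a GAS match.

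Of all 32851 RefSeq promoters, 8.3% held a GAS match, 3.44% an ISRE match and 0.454% both. Of the 14 sign-changing genes on the interferon gamma list, 10 had a promoter in the table, of which 5 held a GAS match, 7 an ISRE match and 4 both. The windows of Ubd and Cxcl9, the genes of this list with the highest differences, held neither. Of the 27 type I antiviral genes tested, 23 had a promoter, of which 7 held a GAS match, 12 an ISRE match and 3 both. The closely spaced pair seen in Igtp, Irgm2 and Tgtp2 (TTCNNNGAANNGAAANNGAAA), a pattern written down after these promoters were read, occurred in 5 of the 32851 promoters (0.0152%), each of a different gene. Of these 5 genes, 3 were tested, namely Igtp, Irgm2 and Tgtp2, the sign-changing genes from whose promoters the pattern was written, so their sign change says nothing about the pattern. Across every sign-changing gene with a promoter, 8.96% of the 335 that were higher at 24 and lower at 12 weeks held a GAS match, and 13.1% of the 176 with the opposite pattern did, against 8.56% of all tested genes with a symbol and a promoter. ISRE matches stood in 5.07% and 5.11% of these sets, against 3.79% of the tested genes.

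The diet effect differed between the feeding times in 8860 of 29462 genes (30.1%; limma with Benjamini-Hochberg adjusted p under 0.05). Of these, 4027 (13.7% of those tested) had a higher diet effect at 24 weeks and 4833 (16.4%) a lower one, and the median difference over all genes was −0.01 on the log2 scale. A difference of at least 2-fold was called in 3069 genes (10.4%), with 1029 higher (3.49%) and 2040 lower (6.92%); this count was 1477 with normexp background correction and quantile normalization and 2014 with only probes well above background on all arrays. The diet effect alone was called in 9944 genes (33.8%, with 19.9% lower) at 24 weeks and in 9273 genes (31.5%) at 12 weeks. The 2 diet effects share no arrays, but the difference shares its arrays with both.

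Most of the called genes responded at 1 feeding time. The diet effect was called only at 24 weeks in 3085 genes, of which 1071 had a higher and 2014 a lower effect at 24 than at 12 weeks. It was called only at 12 weeks in 2716 genes, 1683 of them higher and 1033 lower at 24 than at 12 weeks. In 977 genes the diet acted in the same direction at both times with a larger effect at 12 weeks, and in 553 with a larger effect at 24 weeks. In the remaining 375 genes neither diet effect passed alone.

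The diet effect changed sign in 1154 genes (3.92% of those tested and 13% of those called), of which 682 have a symbol and 1003 were well above background in all 4 groups. In 695 genes (2.36%) the diet raised the gene at 24 weeks and lowered it at 12 weeks, with median diet effects of 0.44 and −0.49 log2 at those times. In 459 genes (1.56%) the diet lowered the gene at 24 weeks and raised it at 12 weeks, with medians of −0.65 and 0.57 log2. Both effects were at least 2-fold in 58 genes, 28 of the first kind and 30 of the second. That count was 7 with normexp background correction and quantile normalization, and 29 with only probes well above background on all arrays. Among the 695 genes, HF24 was the group with the highest mean in 265 and C12 in 430, while HF12 was lowest in 276 and C24 in 419. Among the 459 genes, HF12 was highest in 216 and C24 in 243, while HF24 was lowest in 221 and C12 in 238. Of the 1154 genes, 347 changed sign in every one of the 8 fits that left out 1 array, 192 of the first kind and 155 of the second. The count of sign changes was 745 when HF24 replicate 1 was left out, 617 and 650 when the first or second HF12 replicate was, and 632 with no filter on dim probes. Just inside the threshold stood N4bp2l1, with diet effects of 0.72 and −0.94 log2 at 24 and 12 weeks (adjusted p = 0.04999 at 24 weeks). Just outside it stood Xrcc3, with 0.44 and −1.26 log2 (adjusted p = 0.05008 at 24 weeks). Both were chosen after their values were seen.

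**Figure D1:**
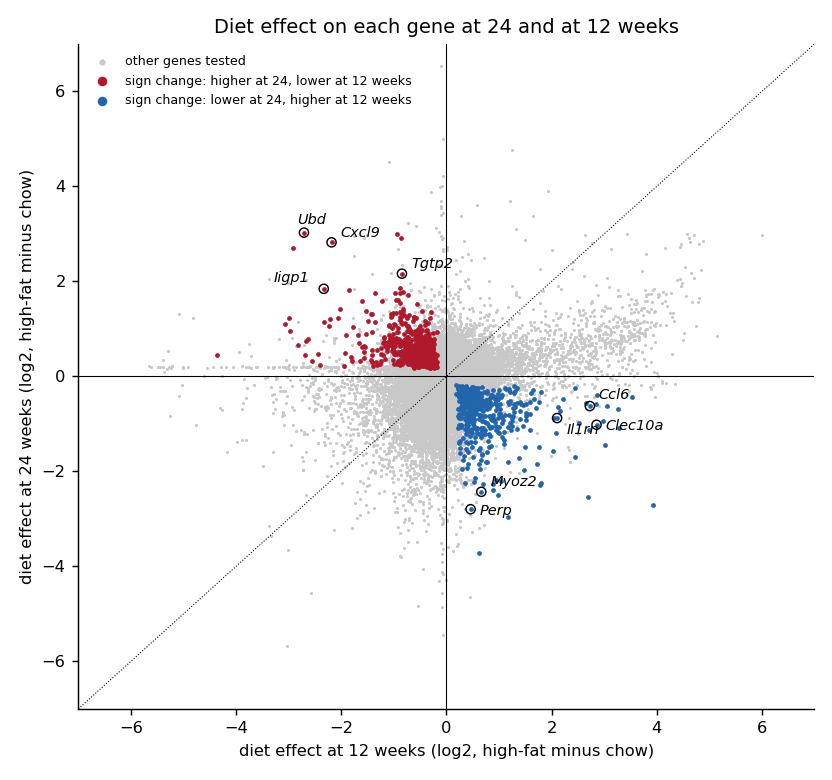
Diet effect at 24 weeks (vertical axis, log2 high-fat minus chow) against diet effect at 12 weeks (horizontal axis, log2), 1 point a gene for 29462 genes, with sign-changing genes coloured and 9 of them ringed and named. The 695 genes raised at 24 and lowered at 12 weeks lie in the upper left corner, with Ubd and Cxcl9 farthest out, and the 459 genes with the opposite pattern lie in the lower right corner, with Clec10a and Ccl6 named.

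Most genes induced by interferon gamma had a higher diet effect at 24 than at 12 weeks, and many changed sign. Over all genes 13.7% were called higher, 16.4% lower and 3.92% sign-changing, the shares to set beside every list count below. Of the 23 genes of this list tested, 18 had a higher diet effect at 24 weeks, 1 a lower one and 14 changed sign. The count of sign changes was 9 without either HF24 array and 10 or 11 without any other, and 9 with no filter on dim probes. The list's median diet effect was 0.76 log2 at 24 weeks and −0.75 log2 at 12 weeks, and its median difference was 1.54 log2. The 18 genes called higher include Ifng, which entered the fit through HF24 and is described below. With only probes well above background on all 8 arrays, 21 were tested, of which 17 were higher, 1 lower and 14 sign-changing. Ubd encodes a ubiquitin-like protein that marks proteins for degradation. It had log2 levels of −1.73 and −1.70 on the HF24 arrays, against −4.83 and −4.65 on the C24 arrays, and −3.74 on both HF12 arrays, against −0.93 and −1.12 on the C12 arrays. Both HF24 arrays stood above both C24 arrays, and both HF12 arrays stood below both C12 arrays. A sign change asks for calls of both diet effects, so such separation follows from the choice of genes, here and below. The diet effect of Ubd was 3.03 log2 at 24 weeks and −2.71 log2 at 12 weeks. The difference of 5.74 log2 (SE 0.13, limma adjusted p = 4.18e-05) was the highest of any sign-changing gene with a symbol measured in all 4 groups.

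Cxcl9, a chemokine that draws activated T cells through the receptor CXCR3, had levels of 1.2 and 1.21 in HF24, against −1.65 and −1.59 in C24, and −2.53 and −2.57 in HF12, against −0.37 and −0.35 in C12. Its diet effects were 2.82 log2 at 24 weeks and −2.19 log2 at 12 weeks, a difference of 5.01 log2 (SE 0.08, limma adjusted p = 3.05e-05). HF24 was the highest of its 4 groups. Iigp1, an immunity-related GTPase that attacks the vacuoles of intracellular parasites, had 4.13 and 4.12 in HF24, against 2.35 and 2.22 in C24, and 1.32 and 1.37 in HF12, against 3.74 and 3.61 in C12. The difference was 4.18 log2 (SE 0.11, adjusted p = 4.18e-05), from diet effects of 1.84 and −2.33 log2 at 24 and 12 weeks. Chow cells therefore had more Iigp1 after 12 than after 24 weeks, and the order was turned round in high-fat cells.

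The immunity-related GTPases of the printed promoters followed the same pattern. Tgtp2, a T-cell-specific GTPase with a close paralog whose transcripts may share its probe, had 3.93 and 3.93 in HF24, against 1.77 and 1.77 in C24, and 0.38 and 0.46 in HF12, against 1.28 and 1.25 in C12. The difference was 3.01 log2 (SE 0.08, adjusted p = 4.18e-05). Irgm2, which regulates the other GTPases of its family, had 2.37 and 2.36 in HF24, against 1.54 and 1.56 in C24, and 1.2 and 1.21 in HF12, against 2.14 and 2.17 in C12. The Irgm2 difference was 1.77 log2 (SE 0.07, limma adjusted p = 5.91e-05). Igtp, the third gene with the paired motif, had diet effects of 1.06 log2 at 24 weeks and −0.75 log2 at 12 weeks.

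Guanylate-binding proteins act at the membranes of vacuoles that hold pathogens. Gbp8 had −3.86 and −3.90 in HF24, against −4.99 and −5.21 in C24, and −3.49 and −3.36 in HF12, against −1.39 and −1.33 in C12, so its difference of 3.29 log2 (SE 0.13, adjusted p = 6e-05) lay on low levels. Probes of this family may share transcripts. Gbp2 had diet effects of 1.06 and −0.73 log2 at 24 and 12 weeks, and Gbp7 of 0.48 and −0.97 log2. Irf1 had levels of 3.98 and 4.03 in HF24, against 2.87 and 2.67 in C24, and 2.36 and 2.38 in HF12, against 2.72 and 2.64 in C12. Gbp2, Gbp7 and Irf1 were chosen after their values were seen. Of the 14 sign-changing genes on the list, 8 kept the sign change in every fit that left out 1 array (among them Cxcl9, Gbp2, Gbp5, Igtp, Iigp1, Irgm2 and Ubd). The other 6 lost it in at least 1 such fit (Irf1, Cxcl10, Gbp4, Gbp6, Gbp7 and Irgm1). Ifngr2, Ido1, Cd274 and Socs3 did not pass the test of the difference, and such names, which only complete a count, were given after the values were seen.

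Irf8, a transcription factor of the macrophage lineage on the same list, went the other way. It had 1.78 and 1.79 in HF24, against 0.32 and 0.43 in C24, and 2.23 and 2.21 in HF12, against −1.35 and −1.22 in C12. The diet raised it at both times, by 1.41 log2 at 24 weeks and by 3.51 log2 at 12 weeks, and the difference was −2.10 log2 (SE 0.10, adjusted p = 9.74e-05).

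**Figure D2:**
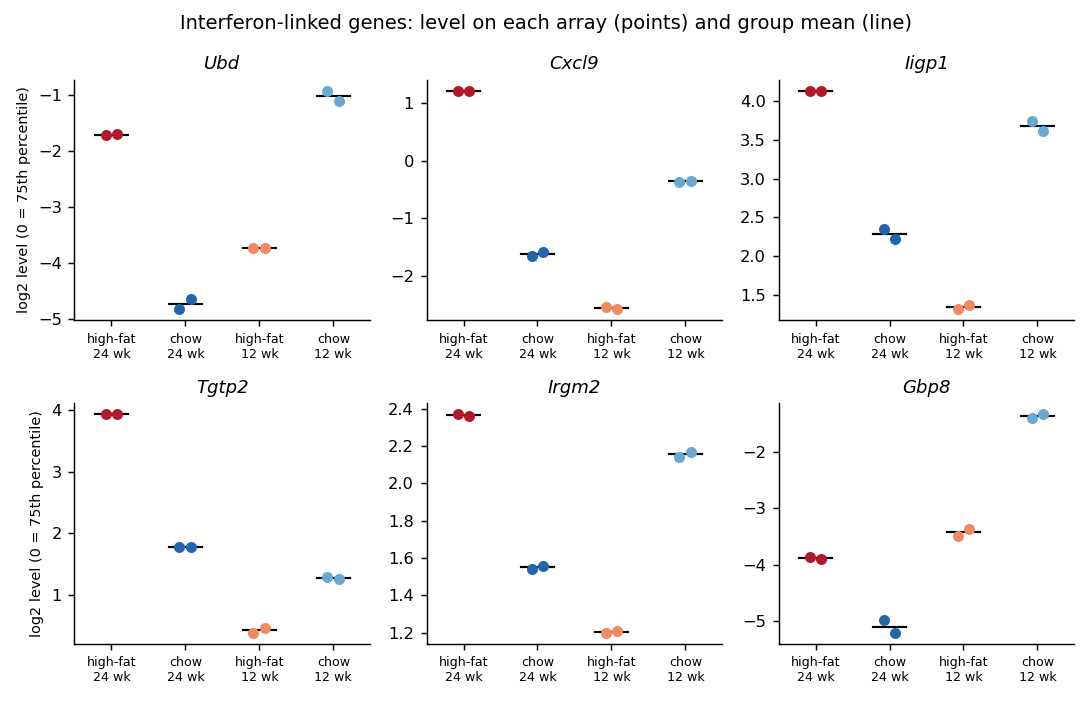
Log2 level of 6 interferon-induced genes (vertical axis, relative to each array's 75th percentile) on the 2 arrays of HF24, C24, HF12 and C12 (horizontal axis), with a bar at each group mean. In each panel HF24 lies above C24 and HF12 lies below C12, as the choice of sign-changing genes asks. The difference of diet effects runs from 5.74 log2 in Ubd to 1.77 log2 in Irgm2.

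AW112010, a transcript induced in activated immune cells, had 1.13 and 1.06 in HF24, against −0.06 and −0.04 in C24, and −0.11 and −0.06 in HF12, against 2.26 and 2.25 in C12 (difference 3.49 log2, adjusted p = 4.18e-05). Gm4951, an interferon-inducible GTPase by its sequence family, had 0.92 and 1.09 in HF24, against 0.01 and −0.12 in C24, and −0.76 and −0.94 in HF12, against 1.5 and 1.26 in C12 (difference 3.29 log2). In both genes C12 was the highest group. Other genes with a difference among the 15 highest were less clearly tied to immunity. Unc93a, a membrane protein, differed by 3.49 log2 with diet effects of 0.67 and −2.82 log2 at 24 and 12 weeks. Anxa8, an annexin of epithelia, differed by 3.40 log2 (0.74 and −2.66 log2), and Zbtb16, a zinc-finger transcription factor induced by glucocorticoids, by 3.14 log2 (0.45 and −2.69 log2). Hcar2, the niacin and ketone-body receptor of adipocytes and macrophages, differed by 2.80 log2 (1.03 and −1.77 log2). Tmem178 and Vmn1r65 differed by 2.91 and 2.73 log2, each with both diet effects over 2-fold.

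Antigen presentation by MHC class I, which displays peptides cut by the immunoproteasome, followed the interferon gamma list with smaller values. Of 13 members tested, 12 had a higher diet effect at 24 than at 12 weeks and none had a lower one by the same limma test. The median diet effect was 0.49 log2 at 24 weeks and −0.16 log2 at 12 weeks. Psmb9, an immunoproteasome subunit, had 2.44 and 2.45 in HF24, against 1.05 and 1.04 in C24, and 1.24 and 1.24 in HF12, against 1.25 and 1.36 in C12, so that HF24 stood alone above the other groups (difference 1.47 log2, SE 0.08, adjusted p = 0.000162). Tap1, which carries peptides into the endoplasmic reticulum, had 1.66 and 1.70 in HF24, against 0.67 and 0.58 in C24, and 0.70 and 0.75 in HF12, against 1.28 and 1.18 in C12. Its difference of 1.56 log2 and that of the class I heavy chain H2-K1 (1.11 log2, from 0.42 and −0.69 log2) came with a sign change in every fit that left out 1 array. Psme1 and Nlrc5, also sign-changing and chosen after their values were seen, lost the sign change in at least 1 of those fits.

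Antiviral genes of the type I interferon response were mostly lower on the high-fat diet at both times. Of 27 members tested, 4 had a higher and 10 a lower diet effect at 24 weeks, and the median difference was −0.04 log2. The diet effect was called lower in 19 of the 27 and higher in none at 24 weeks, and lower in 15 and higher in 3 at 12 weeks, against 19.9% lower and 13.9% higher of all genes at 24 weeks and 18.1% and 13.3% at 12 weeks. Isg15, a ubiquitin-like antiviral modifier, had 4.29 and 4.36 in HF24, against 5.64 and 5.55 in C24, and 4.18 and 4.20 in HF12, against 5.18 and 5.14 in C12. Ifit1, which binds viral RNA, had −0.95 and −0.82 in HF24, against 0.88 and 0.81 in C24, and −0.46 and −0.52 in HF12, against 0.86 and 0.66 in C12. High-fat arrays were thus below chow arrays at both times for these 2 genes. Oas2, an RNA-sensing synthetase, had diet effects of −1.48 log2 at 24 weeks and 0.15 log2 (not called) at 12 weeks, a difference of −1.64 log2 (adjusted p = 0.000146). Cmpk2, a mitochondrial nucleotide kinase, changed sign in the direction opposite to Ubd, with −0.42 and 0.42 log2 at 24 and 12 weeks. Rsad2 did so as well (−1.13 and 0.45 log2), but its sign change was lost in 7 of the 8 fits that left out 1 array (adjusted p up to 0.183, without HF12 replicate 2).

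MHC class II genes, which present antigen in macrophages, dendritic cells and B cells, were mostly higher on the high-fat diet at both times. Of 9 members tested, 1 had a higher and 3 a lower diet effect at 24 weeks, and the median difference was −0.04 log2, with 8 of 9 called higher on the high-fat diet at each time, against 13.9% of all genes at 24 weeks and 13.3% at 12 weeks. Without either HF24 array or HF12 replicate 2 the lower calls numbered 1, and without C12 replicate 1 the higher calls numbered 2. H2-Eb1, a class II beta chain, had 1.13 and 1.14 in HF24, against −0.82 and −0.72 in C24, and 0.03 and −0.01 in HF12, against −1.22 and −1.27 in C12, a difference of 0.65 log2 (adjusted p = 0.00321). Ctss, the cathepsin that trims the invariant chain, differed by −1.87 log2 (diet effects 1.01 and 2.88 log2 at 24 and 12 weeks).

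Lymphocytes are the cells that make interferon gamma. Of 9 lymphocyte markers tested, 3 had a higher and 1 a lower diet effect at 24 weeks (2 lower without C24 replicate 2). With only probes well above background on all 8 arrays, 3 markers were tested, of which 0 were called higher and 1 lower. The summed level of all 9 was 8.83 to 8.92 in HF24, against 6.46 to 6.54 in C24. It was 13.6 to 14.3 in HF12, against 4.67 to 4.91 in C12. Il7r, the interleukin-7 receptor, made up most of the HF12 sum, with log2 levels of 2.18 and 2.17 in HF24, against 1.44 and 1.38 in C24, and 3.35 and 3.38 in HF12, against 0.32 and 0.15 in C12. Il7r was thus higher on the high-fat diet at both times, and the sum does not measure lymphocyte content at either time. Nkg7, a granule protein of cytotoxic cells, was well above background only in HF24, at −2.26 and −2.24, at least 6.62-fold above C24. Ifng itself, chosen after its values were seen, was also well above background only in HF24, at −3.79 and −3.59, at least 2.96-fold above C24. These genes entered the fit through HF24, the group where they were high, so no p-value is given for them. Gzmb, a granzyme, had −2.33 and −2.39 in HF24, against −3.56 and −3.47 in C24, and was not well above background in either 12-week group. In C12, where Ubd and Iigp1 were also high, Ifng, Nkg7 and Gzmb were not well above background. The part of lymphocytes in the interferon gamma result was not tested.

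The opposite pattern, lowered by the diet at 24 weeks and raised at 12 weeks, had its 3 largest differences in Clec10a, Ms4a8a and Ccl6, among genes with a symbol measured in all 4 groups. None of the 20 macrophage markers on the list tested changed sign, which is near the share over all genes (3.92%). Clec10a, a galactose-binding lectin of macrophages and dendritic cells, had −2.25 and −2.17 in HF24, against −1.06 and −1.33 in C24, and −1.10 and −1.01 in HF12, against −3.76 and −4.07 in C12. Its diet effects of −1.02 log2 at 24 weeks and 2.86 log2 at 12 weeks differed by −3.87 log2 (SE 0.19, limma adjusted p = 0.000105). C12 was far below the other 3 groups, while HF24 lay between C12 and C24. Ms4a8a, a membrane protein of the MS4A family found in some macrophages, had −1.39 and −1.49 in HF24, against −0.52 and −0.38 in C24, and −1.21 and −1.22 in HF12, against −3.65 and −3.81 in C12 (difference −3.5 log2, SE 0.12, adjusted p = 4.59e-05). Ccl6, a chemokine of the myeloid lineage, had 5.52 and 5.46 in HF24, against 6.00 and 6.23 in C24, and 6.15 and 6.19 in HF12, against 3.37 and 3.51 in C12 (difference −3.35 log2, SE 0.13, adjusted p = 5.91e-05). Il1rn, the antagonist of the interleukin-1 receptor, had 1.89 and 1.80 in HF24, against 2.65 and 2.80 in C24, and 2.61 and 2.52 in HF12, against 0.37 and 0.54 in C12 (difference −2.98 log2, SE 0.13).

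In all 4 of these genes the 12-week part was the larger, with diet effects of 2.11 to 2.86 log2 at 12 weeks against −0.63 to −1.02 log2 at 24 weeks. Clec4n, a C-type lectin that recognises fungal mannans, differed by −2.88 log2 in the same way (−0.72 and 2.16 log2 at 24 and 12 weeks). Ccl3, a chemokine of activated macrophages, differed by −2.69 log2, but its diet effect of −0.26 log2 at 24 weeks lost its call in 6 of the 8 fits that left out 1 array (adjusted p up to 0.138, without HF24 replicate 1).

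Macrophage markers as a list were raised by the diet at both times, and more so at 12 weeks. Of 20 tested, 19 had a lower diet effect at 24 than at 12 weeks and none a higher one. Over all genes these shares were 16.4% and 13.7%. The median difference of the list was −2.27 log2. The diet effect was called higher in 16 members at 24 weeks and in 19 at 12 weeks, against 13.9% and 13.3% of all genes. The median effects were 0.96 and 3.5 log2. The summed level was 346 to 355 in HF24, against 177 to 183 in C24, and 491 to 496 in HF12, against 77.0 to 78.8 in C12. All 20 markers were well above background in HF24 and HF12. Cd163 and Cx3cr1 were not well above background in C12, and Cx3cr1 was not in C24 either. C1qb, a chain of complement C1q, had 3.98 and 3.89 in HF24, against 2.19 and 2.18 in C24, and 4.19 and 4.13 in HF12, against −0.14 and −0.09 in C12 (difference −2.52 log2, adjusted p = 4.59e-05).

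Other macrophage genes responded to the diet only at 12 weeks. Mrc1, the mannose receptor, had 2.23 and 2.22 in HF24, against 2.40 and 2.40 in C24, and 3.65 and 3.74 in HF12, against 0.25 and 0.18 in C12 (difference −3.65 log2, adjusted p = 4.18e-05). Cd5l, an apoptosis inhibitor of macrophages, differed by −3.84 log2, Pira2, a paired immunoglobulin-like receptor, by −4.25 log2, Lilra6 by −3.88 log2 and Gm14548 by −4.10 log2. None of these 5 genes passed the diet test at 24 weeks, with effects of −0.17 to 0.10 log2 there. Nxpe5 was raised at both times (0.76 and 4.50 log2 at 24 and 12 weeks, difference −3.74 log2). Receptor genes of the immunoglobulin-like families have near-identical copies that may share probes. The macrophage sum above was higher in HF12 than in C12, as these genes were, and also higher in HF24 than in C24, where 5 of these 6 genes did not pass the diet test. The part of macrophage content in their values was not tested.

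Chemokines and inflammatory mediators were mixed. Of 21 chemokine genes tested, 3 had a higher and 12 a lower diet effect at 24 weeks, against 13.7% and 16.4% of all genes. Their median difference was −0.57 log2, or −0.38 log2 with members below background set at their bound. The higher calls numbered 1 without C24 replicate 1 or either C12 array and 0 without HF12 replicate 2. Ccl12, a monocyte attractant, differed by −3.09 log2 (0.56 and 3.65 log2 at 24 and 12 weeks), and Ccl4 by −2.92 log2 with a 24-week effect of 0.03 log2 that did not pass the test. Ccl8, another monocyte attractant, and Ccl17, a T-cell attractant, were called in the opposite direction, with small differences of 0.30 and 0.78 log2 that lost the call in 8 and 4 of the 8 fits that left out 1 array (adjusted p up to 0.111 and 0.0669, without HF12 replicate 1 and C12 replicate 1). Of 20 cytokines and inflammatory enzymes, 3 had a higher and 5 a lower diet effect at 24 weeks, against the same shares of all genes. With only probes well above background on all 8 arrays, 15 were tested, 2 of them higher and 4 lower. Tnf had 0.08 and −0.02 in HF24, against −0.76 and −0.58 in C24, and −1.40 and −1.5 in HF12, against −4.44 and −4.50 in C12 (difference −2.31 log2, adjusted p = 0.000124). Arg1, the arginase of alternatively activated macrophages, was well above background only in HF24, at −2.33 and −2.26, at least 7.79-fold above C24, and it entered the fit through HF24. Il6 was lower on the high-fat diet at both times (−0.78 and −0.50 log2 at 24 and 12 weeks), and its difference of −0.28 log2 (95% interval −0.60 to 0.04) did not pass the test (adjusted p = 0.163), though it did without C12 replicate 1 (adjusted p = 0.0468) and with normexp background correction (adjusted p = 0.0378).

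Markers of granulocytes and mast cells had higher diet effects at 24 weeks in 6 of 10 members tested and lower ones in none. S100a9, a calcium-binding protein of neutrophils, was well above background only in HF24, at 0.06 and −0.04, at least 38.5-fold above C24, and it too entered the fit through that group. Its partner S100a8 had −0.60 and −0.66 in HF24, against −2.28 and −2.28 in C24, and −0.64 and −0.42 in HF12, against −0.57 and −0.72 in C12, so C24 alone was low. Kit, the stem cell factor receptor of mast cells, changed sign (0.57 and −0.74 log2 at 24 and 12 weeks). The summed level of the list was 85.6 to 87.3 in HF24, against 103 to 106 in C24, and 74.1 to 77.6 in HF12, against 86.6 to 89.2 in C12, which does not follow S100a9.

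**Figure D3:**
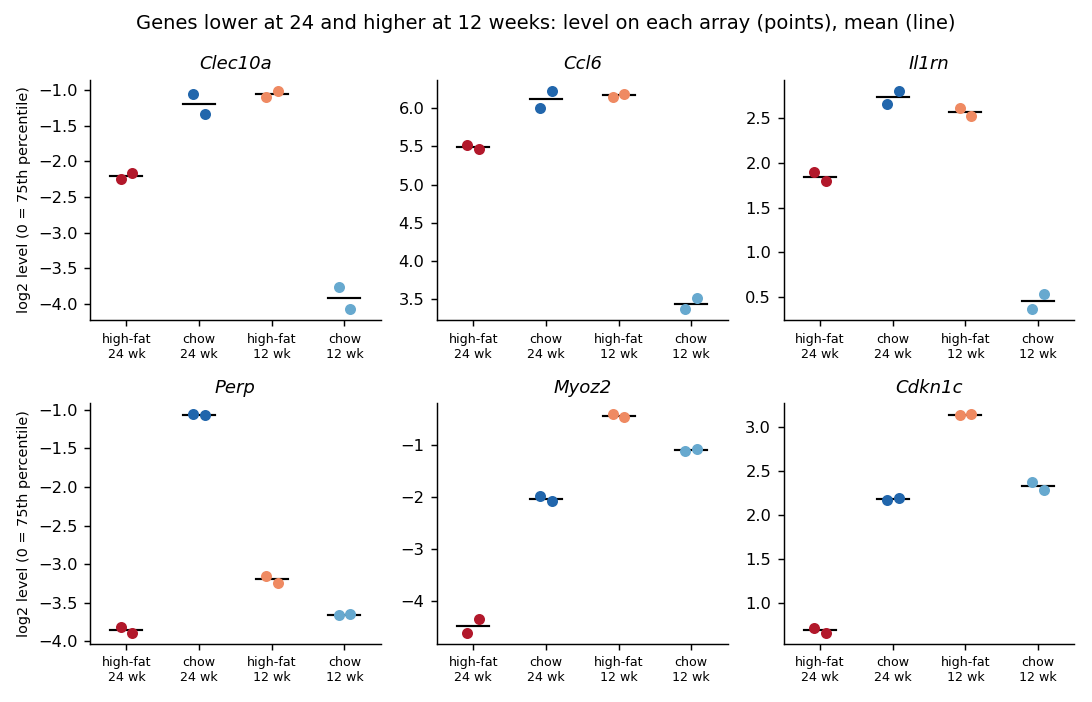
Log2 level of 6 genes lowered by the diet at 24 weeks and raised at 12 weeks (vertical axis, relative to each array's 75th percentile) on the 2 arrays of HF24, C24, HF12 and C12 (horizontal axis), with a bar at each group mean. Clec10a, Ccl6 and Il1rn are lowest in C12, Perp is highest in C24, and Myoz2 and Cdkn1c are lowest in HF24 and highest in HF12.

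Adipocyte genes were lowered by the diet far more at 12 than at 24 weeks. Of 23 mature adipocyte genes tested, 17 had a higher diet effect at 24 weeks and 3 a lower one, with a median difference of 1.70 log2 from medians of −0.10 log2 at 24 weeks and −2.45 log2 at 12 weeks. Their summed level was 168 to 171 in HF24, against 207 to 208 in C24, and 305 to 320 in HF12, against 1177 to 1184 in C12. C12 had the highest sum, while in HF24 Adipoq, Retn, Cfd, Cidea, Lipe, Pck1 and Adrb3 were not well above background. Cidea, Lipe and Pck1 were not well above background in C24 either, nor was Pck1 in HF12. With only probes well above background on all 8 arrays, 16 genes were tested, of which 13 were called higher and 2 lower. Cidec, a lipid droplet protein, had −3.88 and −3.99 in HF24, against −3.67 and −3.70 in C24, and −0.96 and −1.01 in HF12, against 2.82 and 2.81 in C12 (difference 3.55 log2, SE 0.09, adjusted p = 4.18e-05). Fabp4, the fatty acid carrier of adipocytes, had 5.44 and 5.50 in HF24, against 5.33 and 5.34 in C24, and 5.82 and 5.91 in HF12, against 8.08 and 8.03 in C12 (difference 2.33 log2). Plin4, which coats lipid droplets, differed by 1.99 log2 with a lower level on the diet at both times.

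Of the 23 adipocyte genes tested, 3 changed sign, against 3.92% of all genes. Pnpla2, the lipase that starts triglyceride breakdown, had 1.97 and 1.90 in HF24, against 1.38 and 1.55 in C24, and 3.07 and 3.04 in HF12, against 5.58 and 5.41 in C12 (difference 2.92 log2). Acsl1, which activates fatty acids, and Slc2a4, the insulin-responsive glucose transporter, differed by 2.88 and 2.63 log2. The 24-week effects of all 3 were small (0.47, 0.32 and 0.23 log2), and none kept the sign change in every fit that left out 1 array. Pnpla2 lost it without HF24 replicate 1 (adjusted p = 0.0512), Acsl1 in 5 of the 8 fits (up to 0.159) and Slc2a4 in all 8 (up to 0.18), the highest p of each arising without HF24 replicate 1. Cd36, a fatty acid receptor that macrophages also carry, and Lpl, the lipoprotein lipase, went the other way, with differences of −1.22 and −0.46 log2. Cfd, the third member called lower, was not well above background in HF24, and its difference turned to 0.16 log2 with another background correction.

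Regulators of adipogenesis had 9 higher and 3 lower diet effects among 20 tested, against 13.7% and 16.4% of all genes. Their median difference was 0.27 log2. The lower calls numbered 1 without HF24 replicate 2 or either HF12 array. Pparg, the master regulator of fat cell differentiation, had 2.90 and 2.90 in HF24, against 2.68 and 2.69 in C24, and 3.20 and 3.23 in HF12, against 4.58 and 4.63 in C12. Its diet effects were 0.21 log2 at 24 weeks and −1.39 log2 at 12 weeks, and the difference was 1.60 log2 (SE 0.07, adjusted p = 8.1e-05), while the 24-week effect lost its call without either HF24 array or either C24 array (adjusted p of 0.0806 to 0.116) and with quantile normalization (adjusted p = 0.0668). Klf15 and Srebf1, 2 lipogenic transcription factors, responded only at 12 weeks, with differences of 1.58 and 0.92 log2, as did Prdm16, the brown fat regulator, with 1.2 log2. Id2, an inhibitor of helix-loop-helix factors, changed sign in the opposite direction (−0.45 and 0.52 log2 at 24 and 12 weeks). Dlk1, the preadipocyte protein that holds back differentiation, and Klf5 also had lower diet effects at 24 weeks, by −0.54 and −0.66 log2, but the call was lost in 5 of the 8 fits that left out 1 array for each (adjusted p up to 0.0816 and 0.093, without HF12 replicate 1), and Dlk1 was −0.18 log2 with normexp background correction (adjusted p = 0.34). Cbs, Gpat3 and Cited4, none of them on a list, had differences of 3.80, 3.47 and 3.41 log2 and no called effect at 24 weeks. Gpat3 makes lysophosphatidic acid for triglycerides, and Cbs makes cystathionine from homocysteine.

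Major urinary proteins, lipocalins secreted by liver and also transcribed in fat, had the highest median difference of the 35 lists. All 9 members tested had a higher diet effect at 24 weeks, with a median difference of 5.46 log2 from medians of 0.19 log2 at 24 weeks and −5.26 log2 at 12 weeks. Mup1 had −1.08 and −1.0 in HF12, against 4.25 and 4.29 in C12, and was not well above background in HF24 or C24. The value at 24 weeks therefore compares groups without a measured level, and Mup2 was the single member measured in all 4 groups. Mup2 had −4.62 and −1.21 in HF24, against −3.94 and −4.51 in C24, and −1.83 and −1.70 in HF12, against 3.37 and 3.28 in C12. Its HF24 arrays lay far apart (difference 6.4 log2, SE 1.43, adjusted p = 0.0204), and the call was lost in 5 of the fits that left out 1 array, namely either C12 array, either HF12 array or C24 replicate 2 (adjusted p of 0.0588 to 0.0679). Members of this family are nearly identical, so their probes may measure shared transcripts.

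Genes of skin, nerve and muscle were lowered by the diet mainly at 24 weeks. Of 10 keratinocyte genes tested, 8 had a lower diet effect at 24 weeks and none a higher one, with a median difference of −2.48 log2 (−1.93 log2 with members below background at their bound) from medians of −2.26 and 0.29 log2 at 24 and 12 weeks. With normexp background correction and quantile normalization the median difference was −1.16 log2. Krt5, a keratin of basal epidermis, had −2.86 and −3.0 in HF24, against 0.55 and 0.64 in C24, and −4.08 and −4.45 in HF12, against −4.53 and −4.45 in C12 (difference −3.76 log2, SE 0.18, adjusted p = 0.000105). C24 stood above every other group. Krt14 and Krt17 differed by −3.76 and −3.31 log2 in the same way. Perp, a desmosomal membrane protein, had −3.82 and −3.89 in HF24, against −1.06 and −1.07 in C24, and −3.15 and −3.24 in HF12, against −3.66 and −3.65 in C12. It changed sign, with diet effects of −2.80 and 0.46 log2 at 24 and 12 weeks (difference −3.26 log2, SE 0.08, adjusted p = 4.18e-05), and kept the change in every fit that left out 1 array. The keratinocyte sum was 6.81 to 7.01 in HF24, against 14.8 to 15.2 in C24, and 6.88 to 7.07 in HF12, against 6.12 to 6.30 in C12, and Dsp was well above background only in C24.

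Schwann cell genes were all lower in the test of the difference (9 of 9), with a median of −1.74 log2, or −1.60 log2 at the bound. Ngfr, the low-affinity neurotrophin receptor, had 1.25 and 1.27 in HF24, against 3.67 and 3.74 in C24, and 3.01 and 3.04 in HF12, against 2.97 and 3.21 in C12 (difference −2.38 log2, adjusted p = 0.000128). HF24 alone was low. Gfra3, a receptor of the neurotrophic factor artemin, differed by −1.47 log2 with no called effect at 12 weeks. The sum of the list was 5.68 to 5.76 in HF24, against 17.9 to 18.1 in C24, and 14.0 to 14.3 in HF12, against 12.0 to 13.1 in C12.

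Skeletal muscle genes had 11 lower and 1 higher diet effects at 24 weeks among 14 tested, with a median difference of −1.72 log2 (−1.66 log2 at the bound) from medians of −1.89 and −0.43 log2 at 24 and 12 weeks. Myog, a myogenic regulator, had 0.19 and 0.18 in HF24, against 1.92 and 2.00 in C24, and 3.09 and 3.03 in HF12, against 3.04 and 3.09 in C12 (difference −1.77 log2, adjusted p = 9.26e-05). The acetylcholine receptor subunit Chrna1 differed by −1.77 log2 with no called effect at 12 weeks. Actn2 and Tnnc2, proteins of the sarcomere, were lowered at both times and differed by −1.76 and −1.81 log2. Myoz2, a sarcomere protein that binds calcineurin and is not on the list, had −4.60 and −4.34 in HF24, against −1.99 and −2.08 in C24, and −0.42 and −0.47 in HF12, against −1.12 and −1.09 in C12. It changed sign, with diet effects of −2.43 and 0.66 log2 at 24 and 12 weeks (difference −3.10 log2, SE 0.14, adjusted p = 7.87e-05). Itgb1bp2, a muscle partner of integrins, did too (−2.24 and 0.36 log2), but lost the sign change without either HF12 array or either C12 array (adjusted p of 0.0981 to 0.176). Pax7, a marker of satellite cells, was the member called higher, and it was well above background only in C12. Without HF24 replicate 2 the higher calls numbered 2. The muscle sum was 25.5 to 26.1 in HF24, against 84.6 to 86.0 in C24, and 153 to 158 in HF12, against 209 to 219 in C12.

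Of 4 mesothelial genes, 2 had a lower and 1 a higher diet effect at 24 weeks. Msln, the mesothelial surface protein, had −3.85 and −4.02 in HF24, against −1.69 and −1.75 in C24, and −1.24 and −1.18 in HF12, against −1.69 and −1.77 in C12. It changed sign with effects of −2.22 and 0.52 log2 at 24 and 12 weeks (difference −2.73 log2, SE 0.11, adjusted p = 5.75e-05). Krt19 changed sign with −0.26 and 0.42 log2, which was lost in all 8 fits that left out 1 array (adjusted p of 0.0521 to 0.181), and Cldn15, a claudin, differed by 0.47 log2. The mesothelial sum was 1.81 to 1.93 in HF24, against 2.26 to 2.36 in C24, and 1.41 to 1.42 in HF12, against 1.34 to 1.35 in C12. For the skin, nerve, muscle and mesothelial genes, the part of such cells in these results was not tested.

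**Figure D4:**
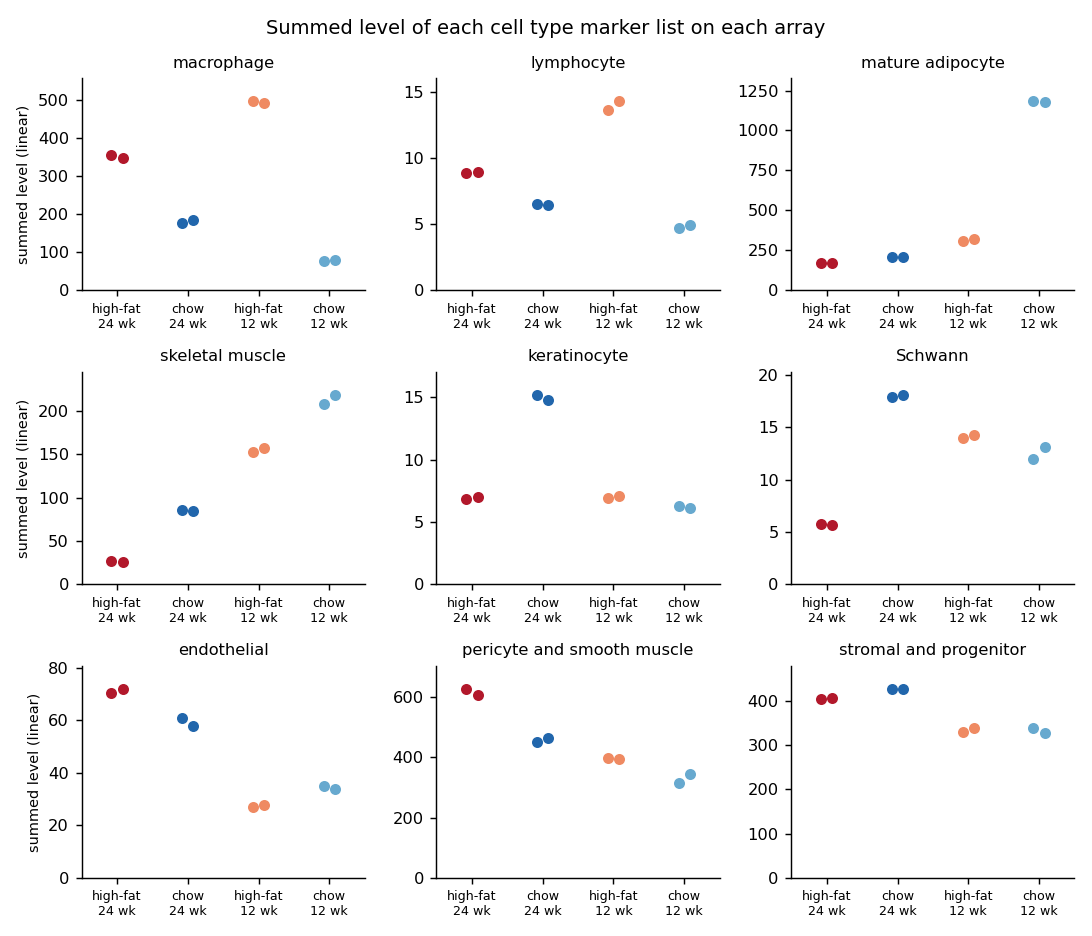
Summed linear level of 9 cell type marker lists (vertical axis, relative to each array's 75th percentile) on the 2 arrays of HF24, C24, HF12 and C12 (horizontal axis). The macrophage sum is highest in HF12 at 491 to 496, the adipocyte sum is highest in C12 at 1177 to 1184, and the keratinocyte sum is highest in C24 at 14.8 to 15.2.

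Cell cycle genes were raised by the diet mainly at 24 weeks. Of 32 tested, 28 had a higher diet effect at 24 weeks and 1 a lower one. With no filter on dim probes these counts were 22 and 1. The median difference was 0.71 log2, from medians of 0.80 log2 at 24 weeks and 0.13 log2 at 12 weeks. Mki67, a protein of dividing cells, had 3.98 and 3.95 in HF24, against 3.0 and 3.09 in C24, and 3.72 and 3.74 in HF12, against 3.33 and 3.40 in C12 (difference 0.56 log2, SE 0.09, adjusted p = 0.00542). HF24 was the highest and C24 the lowest group. Nusap1, a spindle protein, responded only at 24 weeks, with a difference of 0.85 log2. Kif20a and Cenpf, of the mitotic spindle and kinetochore, had negative effects at 12 weeks (−0.35 log2 for each) and so changed sign. Kif20a lost this without any 1 of the 12-week arrays (adjusted p up to 0.138) and Cenpf without C12 replicate 1 or either HF12 array (up to 0.102). Ccnd1, the cyclin of the G1 phase, was the exception, with 1.92 and 1.89 in HF24, against 2.08 and 2.07 in C24, and 3.02 and 2.93 in HF12, against 1.60 and 1.70 in C12 (difference −1.5 log2, adjusted p = 0.000183).

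Inhibitors of the cell cycle and p53 targets had 7 lower and 1 higher diet effects at 24 weeks among 16 tested, with a median difference of −0.25 log2. Cdkn1c, the imprinted cyclin-dependent kinase inhibitor p57, had 0.72 and 0.66 in HF24, against 2.17 and 2.19 in C24, and 3.13 and 3.14 in HF12, against 2.37 and 2.28 in C12. It changed sign with diet effects of −1.49 and 0.81 log2 at 24 and 12 weeks (difference −2.31 log2, SE 0.08, adjusted p = 4.66e-05). Cdkn2b, the inhibitor p15, changed sign with −0.62 and 0.45 log2. Cdkn2a, which encodes p16 and p19ARF, had 0.08 and 0.04 in HF24, against 0.99 and 0.81 in C24, and 1.14 and 1.35 in HF12, against 0.99 and 0.92 in C12 (difference −1.13 log2, SE 0.14, adjusted p = 0.0025). HF24 was below the other groups for all 3 of these genes. Cdkn1a, the inhibitor p21, differed by −0.51 log2 (SE 0.13, adjusted p = 0.0324), a call that was lost in 6 of the 8 fits that left out 1 array (adjusted p up to 0.099, without HF12 replicate 1). Cdkn2c, the inhibitor p18, was called in the opposite direction (1.08 log2), and Sesn1, a p53 target, differed by −0.61 log2 with higher levels on the diet at both times.

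Imprinted growth regulators had 7 lower and 2 higher diet effects at 24 weeks among 14 tested, with medians of −1.23 and −0.53 log2 at 24 and 12 weeks. Meg3, a maternally expressed noncoding RNA, had 1.76 and 1.77 in HF24, against 3.09 and 3.21 in C24, and 3.28 and 3.33 in HF12, against 2.76 and 2.90 in C12 (difference −1.86 log2, adjusted p = 0.000162). Igf2, the fetal growth factor, had −1.75 and −1.70 in HF24, against 0.20 and 0.28 in C24, and 1.75 and 1.64 in HF12, against 1.62 and 1.76 in C12 (difference −1.97 log2, adjusted p = 0.000148). For both genes HF24 stood apart below the other groups. Mest, a paternally expressed gene that marks fat expansion, went the other way and changed sign (0.89 and −1.01 log2 at 24 and 12 weeks, difference 1.91 log2), and Ndn differed by 0.61 log2. Meg3, Cdkn1c and Mest kept the sign change in every fit that left out 1 array.

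Genes of mitochondrial respiration had 18 higher and 3 lower diet effects at 24 weeks among 25 tested. With no filter on dim probes, 26 were tested, of which 12 were called higher and 3 lower. In the main fit the median difference was 0.48 log2, from medians of 0.08 and −0.45 log2 at 24 and 12 weeks. Cs, the citrate synthase, had 6.04 and 6.11 in HF24, against 5.99 and 5.92 in C24, and 5.83 and 5.80 in HF12, against 6.34 and 6.36 in C12 (difference 0.67 log2, adjusted p = 0.00241). Acadm, of fatty acid oxidation, and Idh3a, of the citrate cycle, responded only at 12 weeks, with differences of 0.87 and 0.81 log2. Cycs, cytochrome c, changed sign with 0.24 and −0.45 log2 at 24 and 12 weeks, which was lost without any 1 of the 24-week arrays (adjusted p of 0.0798 to 0.117). The members called lower were Cox8b, an isoform of muscle and brown fat (−0.82 log2), Cpt1a, the carnitine transferase (−0.64 log2), and Ucp2, an uncoupling protein that macrophages express (−1.45 log2). The adipocyte sum above was highest in C12, and the part of adipocytes in these values was not tested.

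Endothelial genes had 9 higher and no lower diet effects at 24 weeks among 13 tested, with medians of 0.36 and −0.29 log2 at 24 and 12 weeks. Cdh5, the cadherin of vessel walls, had 3.03 and 2.91 in HF24, against 2.31 and 2.45 in C24, and 1.24 and 1.26 in HF12, against 1.53 and 1.49 in C12 (difference 0.85 log2, adjusted p = 0.00228). Flt1, Cldn5 and Erg also changed sign, with differences of 1.23, 1.08 and 0.87 log2. None of the 5 sign-changing endothelial genes kept the change in every fit that left out 1 array, and the highest adjusted p was 0.154 for Cdh5 (without HF12 replicate 1), 0.165 for Flt1 (without HF24 replicate 2), 0.0671 for Cldn5 (without HF12 replicate 2) and 0.11 for Erg (without HF24 replicate 1). The fifth was Emcn, chosen after its values were seen. The endothelial sum was 70.4 to 72.1 in HF24, against 57.8 to 60.8 in C24, and 26.8 to 27.7 in HF12, against 33.7 to 35.1 in C12. Pericyte and smooth muscle genes were mixed, with 4 higher and 2 lower among 12 tested, against 13.7% and 16.4% of all genes. Kcnj8, a potassium channel of pericytes, had 1.61 and 1.65 in HF24, against −0.02 and −0.24 in C24, and −1.36 and −1.34 in HF12, against −0.39 and −0.54 in C12 (difference 2.64 log2, SE 0.13, adjusted p = 0.000105). Its partner subunit Abcc9 responded only at 12 weeks, with a difference of 1.09 log2. Notch3 changed sign with 0.32 and −0.48 log2, while Des and Cnn1, proteins of contractile cells, differed by −0.92 and −0.48 log2. The pericyte sum was 608 to 628 in HF24, against 450 to 463 in C24, and 394 to 399 in HF12, against 315 to 343 in C12.

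Secreted growth factors had 5 higher and 12 lower diet effects at 24 weeks among 25 tested, against 13.7% and 16.4% of all genes. Their median difference was −0.42 log2. The higher calls numbered 3 without HF24 replicate 1 or either HF12 array. Vegfd, a lymphangiogenic factor, had 3.07 and 3.02 in HF24, against 5.13 and 5.22 in C24, and 5.17 and 5.20 in HF12, against 5.85 and 5.90 in C12 (difference −1.44 log2, adjusted p = 0.000181). Fgf21, a metabolic hormone, and Ptn, pleiotrophin, were also lowered at both times and more at 24 weeks, with differences of −1.29 and −1.86 log2. Angpt1, a vessel-stabilising factor (0.89 log2), Ereg (0.60 log2), Vegfb (0.59 log2), Mdk (0.49 log2) and Pgf (0.32 log2) were called in the opposite direction. The calls of Vegfb and Pgf were lost in 4 and 7 of the 8 fits that left out 1 array (adjusted p up to 0.0681 and 0.0997, without HF12 replicate 2). Of 24 genes of TGF-beta and BMP signalling, 7 had a higher and 8 a lower diet effect at 24 weeks, with 5 lower without HF24 replicate 2. Bmp2, an osteogenic factor, had 1.24 and 1.22 in HF24, against 0.35 and 0.20 in C24, and −1.42 and −1.32 in HF12, against −0.79 and −0.78 in C12, and kept its sign change in every fit that left out 1 array (difference 1.54 log2). Bmp7, which promotes brown fat, differed by 2.29 log2, and the BMP receptor gene Bmpr1b by −1.29 log2 with a sign change that was lost without HF12 replicate 1 (adjusted p = 0.0516).

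In the WNT pathway, 7 of 24 genes tested had a higher and 6 a lower diet effect at 24 weeks, against 13.7% and 16.4% of all genes. The higher calls numbered 3 without HF12 replicate 1, and 4 without HF24 replicate 2, C24 replicate 1, HF12 replicate 2 or C12 replicate 1, against 6 or 7 lower ones. The secreted inhibitors Sfrp1 and Sfrp5 differed by −1.88 and −1.65 log2, and Sfrp5 changed sign (−0.94 and 0.70 log2 at 24 and 12 weeks). Positional genes of the HOX and related families had 12 higher and 2 lower among 24 tested. Hoxa7, Hoxb7 and Hoxc5 changed sign with differences of 1.37, 0.92 and 0.63 log2, and none kept the change in every fit that left out 1 array (adjusted p up to 0.11, 0.197 and 0.127, without HF24 replicate 2, HF24 replicate 1 and HF12 replicate 2). Pitx1, which marks the hindlimb region, had −0.26 and −0.41 in HF24, against −0.93 and −0.94 in C24, and −3.22 and −3.28 in HF12, against −5.28 and −5.56 in C12. The 24-week and 12-week groups were far apart for this gene under both diets, and the diet effects differed by −1.57 log2 (adjusted p = 0.00105). Immediate early genes, which respond within minutes to stimuli, had 7 lower and no higher among 16 tested, and 4 lower without HF24 replicate 2 or either HF12 array. Fos changed sign (−0.65 and 1.30 log2 at 24 and 12 weeks), while Egr1, Egr2 and Ier2 were highest in C24 and differed by −1.25, −1.47 and −1.02 log2.

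The remaining lists are given by their counts, beside 13.7% higher and 16.4% lower among all genes. Of 17 cholesterol synthesis genes, 1 had a lower diet effect at 24 weeks and none a higher one (2 lower without C12 replicate 2), and the list was lower on the diet at both times (medians −0.34 and −0.29 log2 at 24 and 12 weeks). Of 23 collagen and matrix genes, 5 were lower and none higher, with 3 lower without either HF24 array, C24 replicate 1 or HF12 replicate 2. Col11a1, a cartilage collagen, had −2.69 and −2.88 in HF24, against −1.0 and −0.97 in C24, and −1.92 and −1.86 in HF12, against −2.60 and −2.74 in C12 (difference −2.58 log2, adjusted p = 9.74e-05). Of 14 osteogenic and chondrogenic genes, 4 were lower and none higher, among them the tendon factor Scx (−0.94 log2) and Tnmd, which changed sign (−0.88 and 1.25 log2 at 24 and 12 weeks). Of 19 hypoxia and glycolysis genes, 1 was higher, the mitophagy receptor Bnip3 (1.53 log2, with 0.64 and −0.89 log2), and 3 were lower, among them Aldoc (−2.21 log2) and Car9 (−2.15 log2). Of 17 genes of endoplasmic reticulum stress, 1 was higher and 6 lower, with Atf3 at −2.49 log2 and no called effect at 24 weeks. Without either HF12 array none was higher and 3 were lower, and the higher call was also lost without either HF24 array, C24 replicate 2 or C12 replicate 1. Antioxidant genes had 4 higher and 6 lower of 18, with 3 lower without HF24 replicate 1 and 2 without HF12 replicate 2, and matrix proteases 4 and 4 of 19, led by the macrophage elastase Mmp12 (−2.38 log2). Stromal and progenitor markers had 6 higher and 3 lower of 16. Nt5e, the surface marker CD73, had −3.01 and −3.01 in HF24, against −2.56 and −2.68 in C24, and −3.40 and −3.46 in HF12, against 0.01 and −0.24 in C12, so that C12 alone was high (difference 2.93 log2, adjusted p = 8.62e-05).

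**Figure D5:**
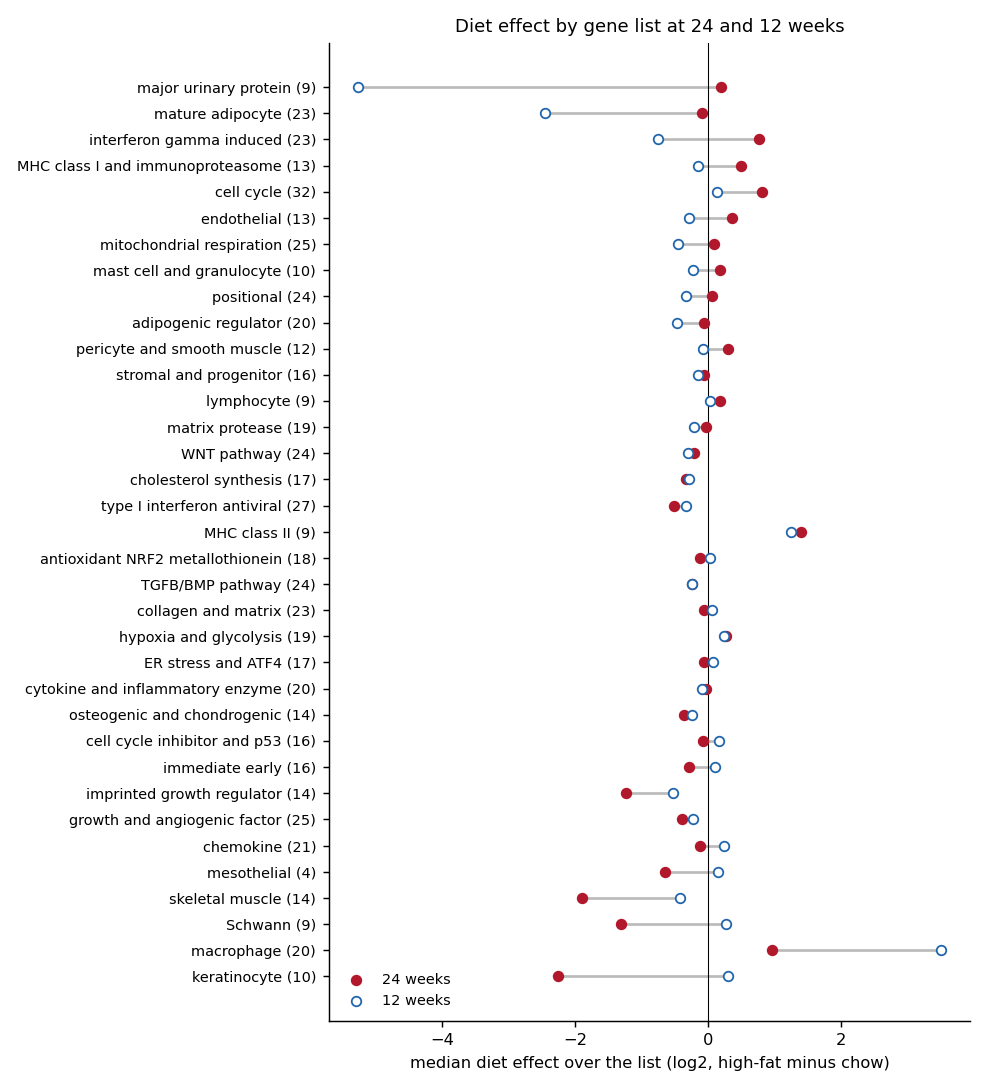
Median diet effect of each of 35 gene lists (horizontal axis, log2 high-fat minus chow) at 24 weeks (filled red) and 12 weeks (open blue), 1 list a line with the number of genes tested. The interferon gamma list has medians of 0.76 and −0.75 log2 at 24 and 12 weeks, the macrophage list 0.96 and 3.5 log2, and the mature adipocyte list −0.10 and −2.45 log2.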

How the data were processed

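Expression was measured in 8 samples (4 groups of 2) on Agilent 1-colour mouse arrays, read with Agilent Feature Extraction 11.0.1.1 per the submitters' processing notes. The deposited scanner files hold the processed intensity, the median signal intensity and the background intensity of 62976 spots an array, and per the file headers their annotation is of build mm9; no coordinate from them is used. A table of log2 values that the authors deposited differed from log2 of the processed intensity by 1 constant an array (−9.986 to −9.791, slope 1), so its scale and lack of gene centring were settled; its medians were −1.44 to −1.33.

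Levels were taken as log2 of the processed intensity minus each array's log2 75th percentile. Control spots and 367 probes with an outlier flag were left out, which left 56238 probes. Probes well above background on both arrays of at least 1 group were kept (37476), and for each gene the probe with the highest mean level was used, which gave 29462 genes; no spot was saturated. The number of arrays limits the precision, and array median intensities ran from 90.1 to 110.9. Symbols came from the RefSeq table of GRCm38.p6, which matched 32835 probes (58.4%) before the signal filter, and 23403 probes stay unnamed. The unnamed probes that passed the filter were tested under their own identifiers, with 1 probe for each identifier.

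A linear model with 4 group means was fitted to all genes with limma 3.58.1 in R 4.3.3 (empirical Bayes, residual df 4, prior df 1.88, Benjamini-Hochberg adjustment over all 29462 genes), and the contrast was (HF24 minus C24) minus (HF12 minus C12). Tables and figures used Python 3.11.15, pandas 2.3.3 and matplotlib 3.10.9. Where a group was not well above background, a fold is given as at least the bright group's mean against the higher of the dim probe's own signal and the lowest signal among probes well above background, per array; medians "at the bound" use the same floor. The fit was tested on simulated data with known changes.

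The members and gene lists were chosen with earlier results of these data known, so list counts and medians are descriptions. Genes named are the 15 highest and 15 lowest differences among sign-changing genes with a symbol measured in all 4 groups, the 10 highest and 10 lowest among all such called genes, in each list the called members with the smallest p (at most 4) and any member opposing its list, and Cdkn1a, Cdkn2a, Il6, Pparg and Mki67; the text says where others were chosen after their values were seen. Some genes that this rule names are not reported here. Replicate numbers are shared across groups, but deviations of same-numbered arrays correlated with r from −0.08 to 0.17, so the numbers do not pair the arrays. The alternatives were normexp background correction (offset 50, on the median signal) with quantile normalization, quantile normalization alone, the authors' value table, no filter on dim probes, a filter that asks for signal well above background on all 8 arrays, each probe as a separate feature, an intensity trend, the replicate block, other definitions of a sign change, and leaving out each array.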

Additional observations from a re-analysis of the deposited data

Results flagged for a closer look

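Every result here stands out because the effect of the diet at 24 weeks differed from that at 12 weeks in a direct test of the difference (limma, adjusted p under 0.05). Over all genes this held for 8860 of 29462, and the sign of the diet effect turned round in 1154. The 10 genes with the largest differences among sign-changing genes with a symbol measured in all 4 groups are given as values. The diet effect was higher at 24 weeks by 5.74 log2 for Ubd, 5.01 log2 for Cxcl9, 4.18 log2 for Iigp1, 3.49 log2 for Unc93a, 3.49 log2 for AW112010, 3.40 log2 for Anxa8 and 3.29 log2 for Gbp8. The difference was −3.87 log2 for Clec10a, −3.50 log2 for Ms4a8a and −3.35 log2 for Ccl6. These 10 genes kept their direction and their call under every alternative that was run and could give a value.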

How the results depend on the processing

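The alternatives are those listed with the processing above. With normexp background correction and quantile normalization, at least 2-fold differences were called in 1477 genes (585 higher, 892 lower) and 2-fold sign changes in 7; with only probes well above background on all 8 arrays, these were 2014 (647 higher) and 29. With no filter on dim probes 632 genes changed sign (354 higher at 24 weeks, 278 lower). Asking only for opposite signs of the estimates and a call of the difference gave 4978 genes. With the replicate block 7646 genes were called and 935 changed sign (543 and 392). Leaving out 1 array gave 6198 to 7687 calls (2608 to 3456 higher) and 617 to 952 sign changes (339 to 567 and 252 to 385), and 5451 to 8840 calls for the diet effect at 12 weeks. List medians moved as follows: macrophage −2.372 (quantile) and −2.365 (all arrays); mature adipocyte 1.975 (normexp) and 1.894 (quantile); skeletal muscle −1.504 (normexp), −1.686 (quantile), −1.756 (all arrays) and −1.784 to −1.668 (leaving out 1 array); keratinocyte −1.159 (normexp) and −2.607 to −2.346 (leaving out 1 array); Schwann −1.200 (normexp), −1.650 (quantile), −1.596 (all arrays) and −1.76 to −1.685 (leaving out 1 array); cell cycle 0.649 and 0.667 (normexp, quantile); MHC class I 0.637 and 0.677 (normexp, quantile) and 0.671 to 0.888 (leaving out 1 array); interferon gamma 1.360 and chemokine −0.415 (normexp); major urinary proteins 4.763 (normexp), 6.402 (all arrays) and 5.292 to 5.53 (leaving out 1 array). The sign reversed for the MHC class II median (0.021 normexp, 0.009 quantile, −0.188 to 0.108 leaving out 1 array), the WNT median (−0.005 quantile, −0.010 to 0.045 leaving out 1 array) and Cfd (0.163 normexp, adjusted p = 0.373). The causes were not tested, apart from the fewer probes or arrays that the filters and omissions leave. Of 213 named genes, 187 kept their call under every alternative that used 1 probe a gene and 26 did not. Genes near background, such as the major urinary proteins at 24 weeks, are limited by signal over background.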

Other observations

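Among the 58 genes with a sign change of at least 2-fold at both times, 29 have a symbol and 16 of these were measured in all 4 groups. Besides the genes described above, they include Apoe, the lipid carrier of macrophages and adipocytes, and Trarg1, a regulator of glucose transporter trafficking in fat, both chosen after their values were seen. Apoe had mean log2 levels of 5.77 in HF24, against 4.42 in C24, and 6.38 in HF12, against 7.40 in C12, so the diet effects were 1.34 log2 at 24 weeks and −1.02 log2 at 12 weeks (difference 2.36 log2, limma adjusted p = 5.19e-05). Trarg1 had −1.91 in HF24, against −3.21 in C24, and −3.15 in HF12, against −2.09 in C12 (difference 2.36 log2, adjusted p = 0.000718). Ptpn5, a tyrosine phosphatase best known from neurons and also chosen after its values were seen, had the opposite pattern, with −0.74 in HF24, against 0.36 in C24, and −0.74 in HF12, against −2.07 in C12 (difference −2.44 log2, adjusted p = 4.59e-05). Uts2, the vasoactive peptide urotensin, and Ly6d, a membrane protein of epithelia and lymphoid progenitors, both named by the rule, had differences of −2.97 and −2.73 log2 with diet effects of −1.48 and −1.13 log2 at 24 weeks and 1.49 and 1.60 log2 at 12 weeks.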
